A study of Saccharomyces cerevisiae with 26 samples.

Results

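The 45 genes described here encode enzymes of the tricarboxylic acid (TCA) cycle, nuclear subunits of the respiratory chain and subunits of the mitochondrial ATP synthase of budding yeast, Saccharomyces cerevisiae. They were chosen by symbol: 11 genes of the TCA cycle, 4 of complex II (succinate dehydrogenase), 9 of complex III (the cytochrome bc1 complex), 2 of cytochrome c, 9 of complex IV (cytochrome c oxidase) and 10 of the ATP synthase. All 45 were on the array, among 5656 genes in all, and all 45 passed the filter on low signal. Each gene is given by its probe set with the highest mean over all arrays. QCR8 and ATP14 had a second probe set.

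The study followed cells into sporulation on 26 Affymetrix arrays, 2 for each of 13 groups, in 2 sets. In set 1, the benomyl cultures received medium with benomyl, a drug that depolymerizes microtubules, dissolved from a 30 mg/ml stock in dimethyl sulfoxide (DMSO), and their controls received 0.4% DMSO. Benomyl and DMSO cultures were sampled 1 h and 4 h after filtration, and an untreated filtered culture of set 1 was sampled at 1 h. In set 2, cold cultures were moved into chilled medium with DMSO and kept at 10 °C. Their controls were filtered cultures sampled at the same 1 h and 4 h, for which the labels state neither DMSO nor a temperature after filtration. Sporulating cultures had been grown for 24 h in YPD with 2% glucose and then overnight at 30 °C in YPA with 2% potassium acetate, before sporulation medium with 0.3% potassium acetate, and each of these treatments began with filtration 4 h later. Both sets include cells taken at 4 h of sporulation, before filtration, and the label of the one in set 1 describes the steps only in part. Set 1 also holds cells grown in YPA and cells grown in YPD. The labels give no strain, no growth stage for the YPD cells, and no statement that the 2 arrays of a group came from separate cultures, so p-values measure the spread between arrays, which may be technical.

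In respiring yeast the TCA cycle oxidizes acetyl groups made from acetate and hands electrons to complex II and to NADH dehydrogenases, since budding yeast has no proton-pumping complex I. Electrons then pass through complex III and cytochrome c to complex IV, and the proton gradient so built drives the ATP synthase. Sporulation in acetate depends on respiration. Many of these genes are activated by the Hap2/3/4/5 complex, and the pairs CYC1/CYC7 and COX5A/COX5B encode isoforms of which CYC7 and COX5B are known as the forms made in low oxygen.

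Values are log2 signals after quantile normalization, and a change is a log2 fold change ± standard error from limma with n = 2 arrays per group. The words rose and fell are kept for genes whose adjusted p was under 0.05 over all 7877 probe sets tested. Signals of different genes come from different probes and are not compared with each other. None of their probe sets carried the suffix that marks probes shared by near-identical copies.

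Replicate arrays correlated at r = 0.984 to 0.995 in 11 groups, at 0.942 in benomyl 1 h and at 0.963 in the filtered 1 h group of set 2. The early meiosis markers rose in 7 of 7 cases at 4 h of sporulation compared with YPA, and the benomyl markers rose in 5 of 5 at 1 h of benomyl. The markers of acetate growth did not separate YPA from YPD: 0 of 7 passed the limma test. ICL1, isocitrate lyase of the glyoxylate cycle, stood at 12.49 and 12.40 in YPA, against 12.39 and 12.55 in YPD. Of 5 glucose growth markers 2 rose and 1 fell in YPA (between -1.24 and 1.65), where 15.7% and 17.7% of all probe sets did. Among them the glucose transporter gene HXT1 stood at 5.52 and 5.68 in YPA, against 5.58 and 5.59 in YPD. These values are near the low-signal limit of 5.44, so they say little about the media. Mid-sporulation markers were lower in set 2 than in set 1 at filtered 1 h (6 of 6 fell, median -2.80).

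Over the 13 groups the classes followed different courses. Each gene was centred on its own mean over groups, and the class median was taken in each group. The medians of ATP synthase, complex IV and complex III were high in both growth media and lower in every sporulation group. The ATP synthase median was 0.94 in YPA and 1.07 in YPD, against 0.05 at 4 h of sporulation in set 1. Single genes departed from their class, among them COR1, highest in benomyl 4 h, and COX5B, highest in benomyl 1 h. The TCA cycle median was close to 0 in the same places, at 0.02 in YPA, -0.09 in YPD and -0.09 at 4 h of sporulation. It was lowest in benomyl 1 h, at -0.67. In such bulk samples a smaller share of cells making an mRNA and less of it per cell cannot be told apart.

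**Figure D1:**
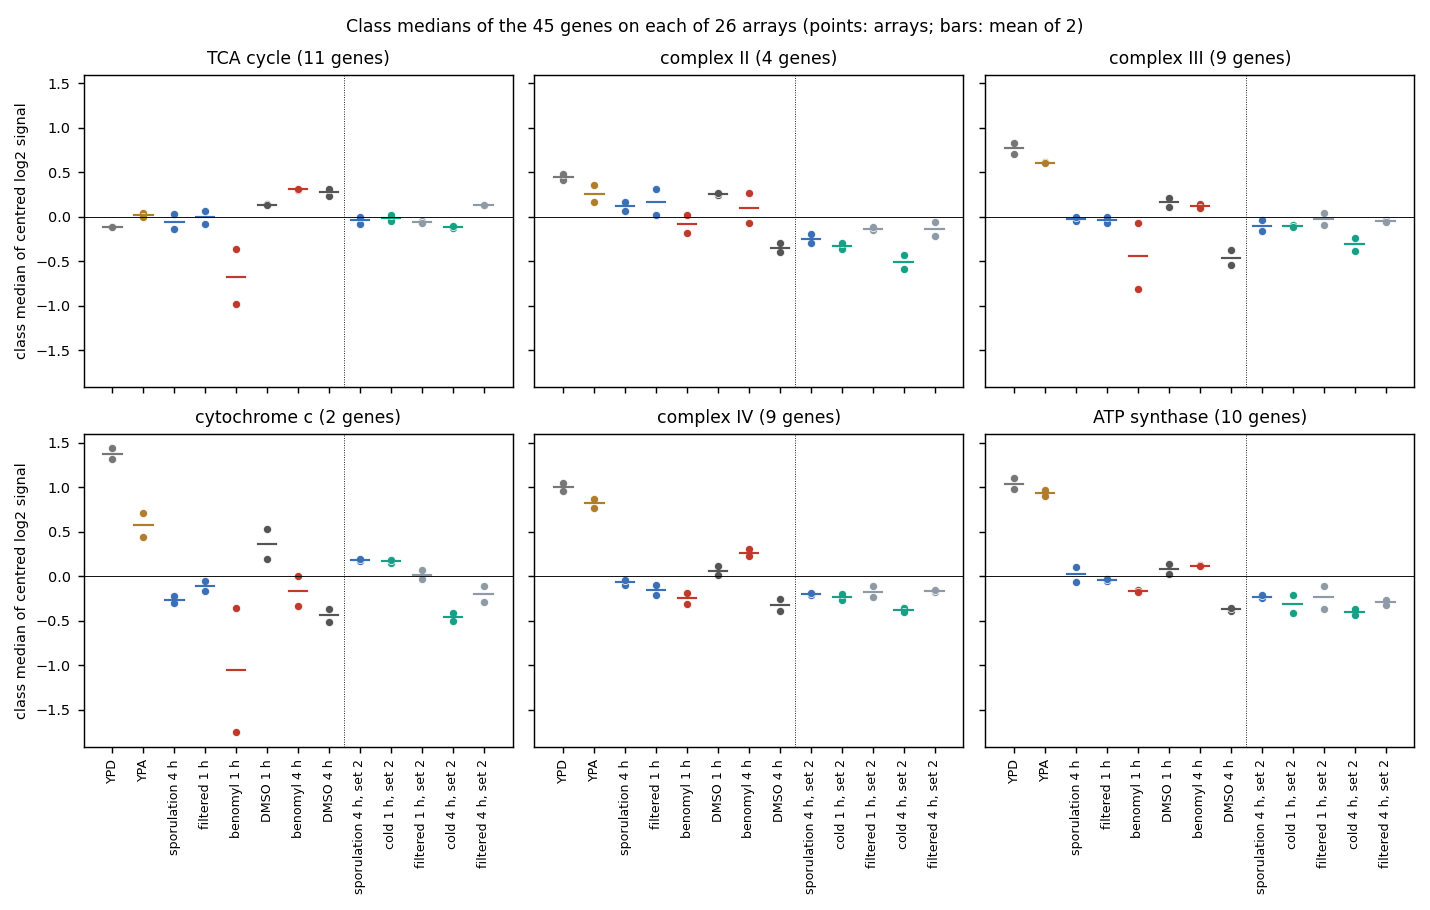
Each point is the median, over the genes of a class, of log2 signal centred on each gene's mean, for 1 array; bars are means of 2 arrays and the dotted line parts set 1 from set 2. The ATP synthase, complex III and complex IV panels are high in YPD and YPA, while the TCA cycle panel is lowest in benomyl 1 h, where the 2 arrays lie apart.

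As a description over groups that share arrays and normalization, the median profiles of ATP synthase and complex IV correlated at r = 0.98 over 13 groups and at 0.88 over the 11 groups without YPA and YPD. For the TCA cycle, over 13 and 11 groups, r was -0.05 and -0.02 with ATP synthase and 0.08 and 0.31 with complex IV. It was 0.21 and 0.56 with complex III, 0.30 and 0.61 with cytochrome c, and 0.00 and 0.13 with complex II. Between complex III and ATP synthase r was 0.91 and 0.55. Of the 45 genes, 25 had r over 0.8 with the median profile of all members, ATP3 (the central stalk of the ATP synthase) the highest at 0.99, and 0 of 11 TCA cycle genes had r over 0.5. Outside the TCA cycle the lowest were CYC7 (0.02) and COX5B (0.09), and within it CIT1 (-0.27). YPD was the highest group for 21 members and YPA for 11, while DMSO 4 h was the lowest for 16, benomyl 1 h for 12 and cold 4 h for 10.

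YPA and YPD differed in few of these genes, and the largest difference was in the isoform genes. In YPA 2 members rose and 4 fell relative to YPD, where 15.7% and 17.7% of all probe sets did. COX5B, the low-oxygen isoform of complex IV subunit V, stood at 6.58 and 6.45 in YPA, against 8.12 and 8.30 in YPD. It fell (-1.69 ± 0.17, limma adjusted p = 1.25e-06), and the 2 groups lay far apart. CYC7, the gene of iso-2-cytochrome c, stood at 7.43 and 7.11 in YPA, against 8.32 and 8.14 in YPD, and fell by 0.96 on the log2 scale. Their partners did not pass the test: CYC1 was at -0.63 (limma adjusted p = 0.122) and COX5A at -0.33 (limma adjusted p = 0.0963).

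In the TCA cycle KGD1, the 2-oxoglutarate dehydrogenase subunit, rose (0.58 ± 0.11) and so did the fumarase gene FUM1 (0.53 ± 0.16) in YPA relative to YPD. SDH2, the iron-sulfur subunit of complex II (-0.40 ± 0.12), and ATP7, of the peripheral stalk of the ATP synthase (-0.42 ± 0.14), fell, and 0 of 9 complex III genes were called. The heme-responsive activator gene HAP1 rose (0.67) while HAP3 (-0.81) and HAP5 (-0.58), which encode DNA-binding parts of the Hap complex, fell. HAP2 (0.16), HAP4 (-0.29) and ROX1, a repressor of hypoxic genes (0.27), were not called. The scan day of the YPD arrays held no other array, so medium and scan day cannot be told apart. With median centring the count was 3 higher and 2 lower, and without replicate 2 of YPA it was 1 higher and 1 lower. Without replicate 2 of YPD, KGD1 was 0.38 and FUM1 0.33, the second of these no longer called. The calls of FUM1 and ATP7 also ended without either YPA array, that of SDH2 without replicate 2 of YPA or of YPD, and that of CYC7 without replicate 2 of YPA or replicate 1 of YPD.

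After 4 h in sporulation medium most genes of complex III, complex IV and the ATP synthase were lower than in YPA. Most of complex II and of the TCA cycle were not, but this part rested on quantile normalization. Under both other scalings most TCA cycle genes fell, and so did SDH2 of complex II (-0.43 as deposited and -0.64 with median centring). The counts that follow are after quantile normalization. Of 45 members 1 rose and 29 fell, where 28.6% and 29.5% of all probe sets did, and the median change was -0.61 against -0.04 over all probe sets. The fall took in 8 of 10 ATP synthase genes, 8 of 9 of complex IV, 7 of 9 of complex III, 1 of 4 of complex II, 1 of 2 of cytochrome c and 4 of 11 of the TCA cycle. By scan day the median of the members was -0.62 and -0.59.

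CYC1, the gene of iso-1-cytochrome c, fell most, and CYC7 did not follow it. CYC1 stood at 9.87 and 9.67 at 4 h of sporulation, against 11.90 and 11.69 in YPA, a fall (-2.02 ± 0.31, limma adjusted p = 1.88e-05). CYC7 stood at 7.58 and 7.64, against 7.43 and 7.11 in YPA (0.34 ± 0.25, limma adjusted p = 0.261). The change of COX5A was -0.90 ± 0.15, a fall, and that of COX5B was -0.12 ± 0.17 (limma adjusted p = 0.555).

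Among the other complexes, ATP14, of the peripheral stalk, stood at 10.00 and 9.95 at 4 h of sporulation, against 11.38 and 11.38 in YPA, and fell by 1.41 on the log2 scale; its second probe set fell by 1.32. ATP17, a membrane subunit, stood at 8.05 and 8.16, against 9.48 and 9.43 in YPA (-1.35 ± 0.12). The arrays of these groups did not overlap, which adds little for genes named as the largest falls of their class. ATP1 and ATP2, which encode the catalytic head's alpha and beta subunits, were the members of the ATP synthase that did not pass the test, at -0.12 and -0.19. QCR10 of complex III fell by 1.37, COX6 of complex IV by 1.18 and SDH3, a membrane anchor of complex II, by 1.34, whereas SDH1, SDH2 and SDH4 stayed between -0.13 and 0.08 and were not called.

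Within the TCA cycle the falls were in genes of 2-oxoglutarate dehydrogenase, succinyl-CoA ligase and fumarase. KGD1 stood at 11.68 and 11.75 at 4 h of sporulation, against 12.77 and 12.85 in YPA (-1.10 ± 0.11, limma adjusted p = 2.08e-07). KGD2 (-0.68), LSC1 of succinyl-CoA ligase (-0.49) and FUM1 (-0.45) fell too. IDH2, a subunit of NAD-dependent isocitrate dehydrogenase, rose by 0.39 (limma adjusted p = 0.0216), but this direction turned under both other scalings (-0.31 as deposited and -0.51 with median centring), and each left-out array of the 2 groups ended the call. FUM1 was -0.20 without replicate 2 of 4 h sporulation. Scaling bore on the whole TCA cycle here: 0 of its genes rose and 7 fell without quantile normalization, whereas median centring gave 0 higher and 9 lower. Over all members 0 rose and 37 fell as deposited, 0 and 40 with median centring, and 29 of the 30 calls held under all 3 scalings.

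**Figure D2:**
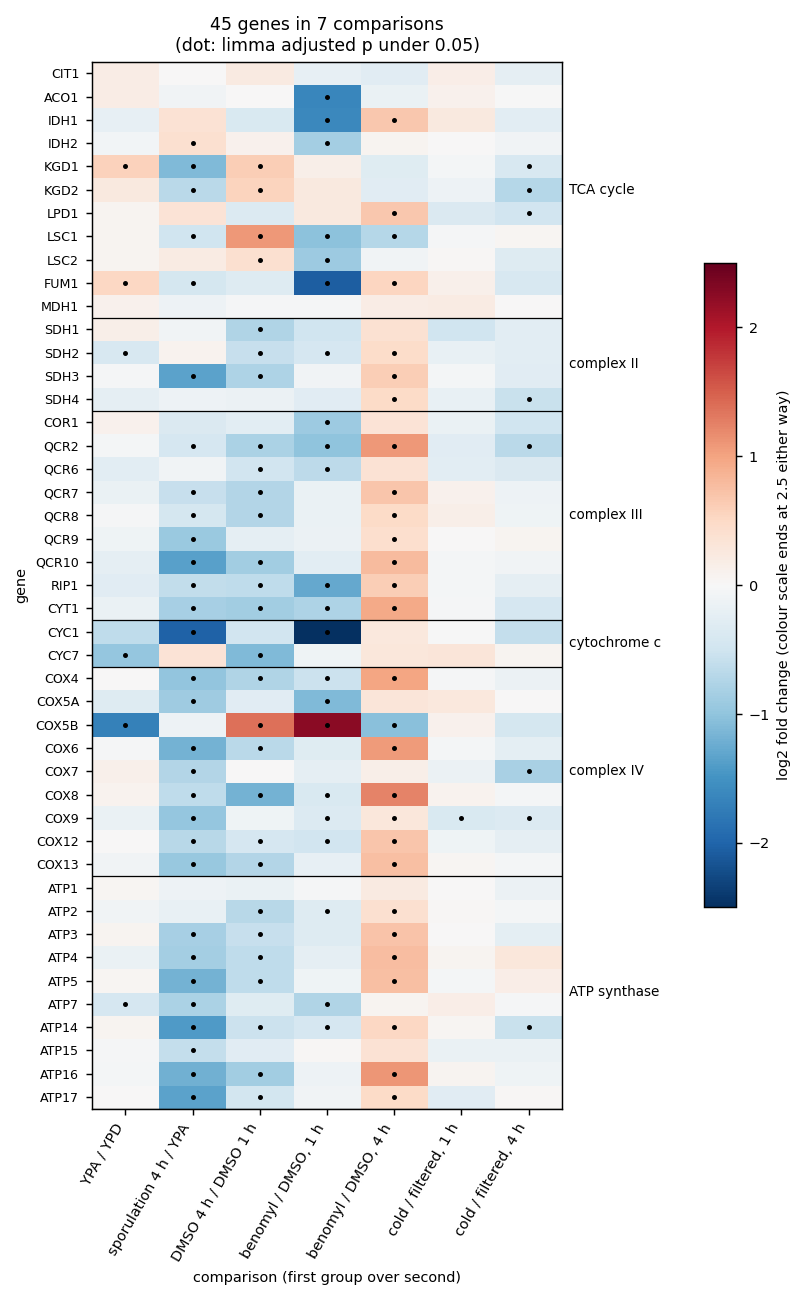
Log2 fold change of the 45 genes (rows, by class) in 7 comparisons (columns), blue for lower and red for higher in the first-named group, with a dot where the limma adjusted p was under 0.05. The column for 4 h of sporulation over YPA is blue from complex III down, and the 2 benomyl columns differ in colour for most rows.

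The other genes of the pathway moved at 4 h of sporulation as follows, compared with YPA. Of 6 measured subunits encoded in the mitochondrial genome 5 fell. ATP6, of the ATP synthase's proton channel, stood at 4.24 and 4.48, against 8.31 and 7.91 in YPA, and COB, cytochrome b, at 5.37 and 5.71, against 8.73 and 8.25. The sporulation values of both lay far below those in YPA, and those of ATP6 and COX2 and 1 of COB were under the low-signal limit of 5.44 used to filter probe sets, so the size of these falls is uncertain. Yeast mitochondrial mRNAs carry no poly(A) tail, and the labels do not say how the RNA was primed. Of 31 assembly factors 24 fell and 2 rose: COX17, a copper chaperone for complex IV (-3.73), CBP6, which acts on cytochrome b synthesis (-2.92), and FMC1, for the ATP synthase (-2.67), had the smallest adjusted p in the list. Of 9 ubiquinone synthesis genes 6 fell, of 7 further ATP synthase subunits and inhibitors 6 fell, and of 6 NADH dehydrogenases and electron donors 4 fell, among them NDI1, the internal NADH dehydrogenase (-0.90). Of 13 mitochondrial carriers 5 rose and 1 fell, where 28.6% and 29.5% of all probe sets did, with the ADP/ATP carrier gene AAC1 at 1.73. HAP4, the activating subunit of the Hap complex, fell (-0.63), HAP3 (0.39) and HAP5 (0.70) rose, and HAP1, HAP2 and ROX1 were not called.

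**Figure D3:**
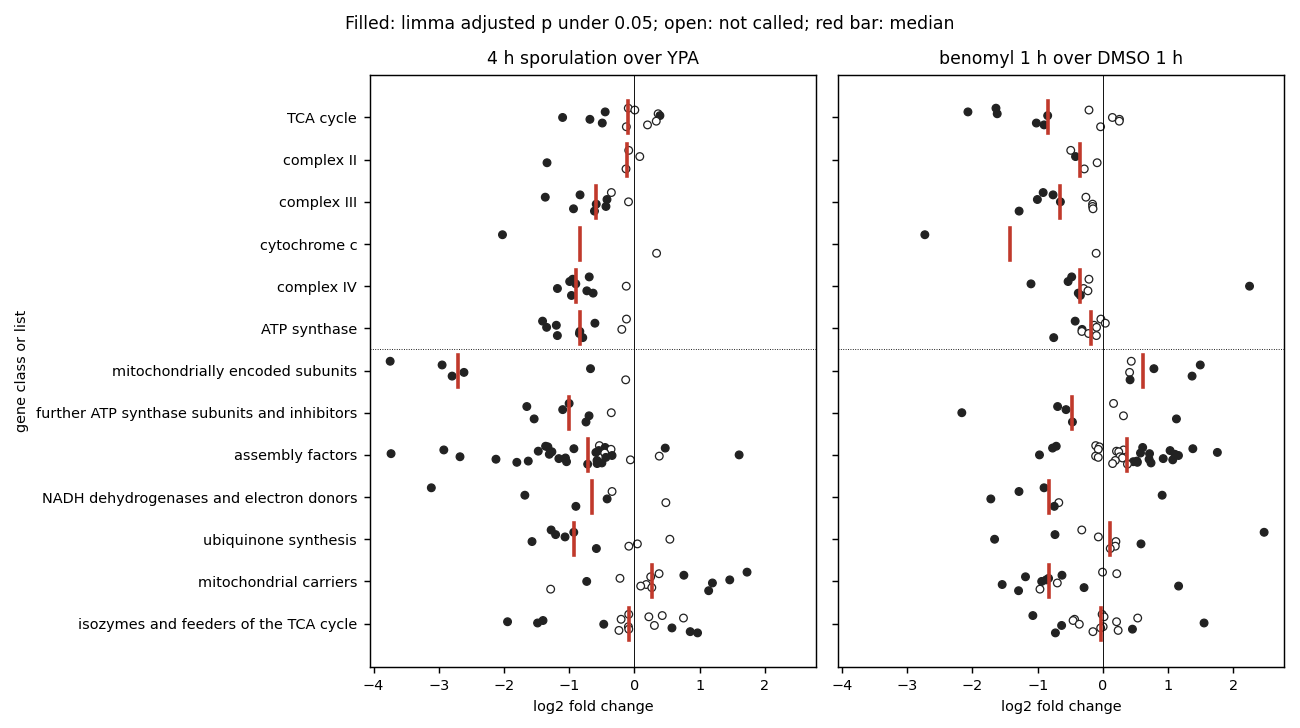
Log2 fold change of each gene by class (above the dotted line) and by list of related genes (below it), for 4 h of sporulation over YPA and for benomyl 1 h over DMSO 1 h; filled points have a limma adjusted p under 0.05 and red bars are medians. The mitochondrially encoded subunits lie left of 0 in the first panel, median -2.70, and right of 0 in the second, median 0.61.

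Few of these genes were called 1 h after filtration or with the solvent. Filtration and the further hour of sporulation cannot be told apart. At filtered 1 h compared with 4 h of sporulation 0 members were called in set 1 and 0 in set 2 by limma (3 in each at an unadjusted p under 0.05), where 3.08% and 2.37% of all probe sets were called, and 11.8% and 16.8% had an unadjusted p under 0.05. At shares of 3.08% and 2.37% few calls would fall among 45 genes, so 0 says little about them. The split of the calls over all probe sets was 2.16% higher and 0.927% lower in set 1 (2.36% and 0.293% as deposited). In set 2 it was 0.686% and 1.69% (0.317% and 2.38% with median centring). For DMSO 1 h over filtered 1 h the members' median was 0.14, against -0.004 over all probe sets. By scan day 40 and 32 of 45 members lay above 0. Limma called 1 member, CIT1, citrate synthase, where 0.571% of all probe sets were called. CIT1 stood at 12.76 and 12.76 in DMSO 1 h, against 11.09 and 12.26 in filtered 1 h (1.09 ± 0.23, limma adjusted p = 0.043). The filtered arrays lay far apart, and without replicate 1 of filtered 1 h the value was 0.50 (limma adjusted p = 0.52). The call also ended without either DMSO array, at an unchanged value.

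In DMSO, between 1 h and 4 h, 7 of 9 complex III genes, 7 of 10 of the ATP synthase, 5 of 9 of complex IV, 3 of 4 of complex II and 1 of 2 of cytochrome c fell, while COX5B and 4 of 11 TCA cycle genes rose. Of the members 5 rose and 23 fell at DMSO 4 h relative to DMSO 1 h, where 17.8% and 25.8% of all probe sets did. The median change was -0.46, which is -0.31 relative to the median of all probe sets (-0.15). COX8, a small subunit of complex IV, stood at 11.02 and 10.45 in DMSO 4 h, against 11.92 and 11.92 in DMSO 1 h (-1.19 ± 0.15, limma adjusted p = 3.64e-06). ATP16, the delta subunit of the ATP synthase, fell by 0.87, CYT1 of complex III (cytochrome c1) by 0.88, SDH3 by 0.77 and CYC7 by 1.11. CYC1 (-0.48) and COX5A (-0.29) were not called.

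The rises at DMSO 4 h were of COX5B and of 4 TCA cycle genes around succinyl-CoA. LSC1 stood at 11.66 and 11.72 in DMSO 4 h, against 10.59 and 10.62 in DMSO 1 h (1.08 ± 0.13, limma adjusted p = 1.5e-06). KGD1 (0.61), KGD2 (0.55) and LSC2 (0.39), the partner subunit of LSC1, rose with it. COX5B stood at 7.62 and 7.63 in DMSO 4 h, against 6.47 and 6.02 in DMSO 1 h (1.38 ± 0.17, limma adjusted p = 3.78e-06), and no DMSO 1 h array reached the DMSO 4 h values. KGD2 was 0.34 without replicate 2 of DMSO 4 h, and the call of LSC2 ended without any 1 of the 4 arrays. With values as deposited 5 members rose and 12 fell, the split over all probe sets turned to 21.7% higher and 15.3% lower, and 16 of the 28 calls held under all 3 scalings.

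In the filtered cultures of set 2, which the labels give without solvent, COX5B was the member called over the same times. At filtered 4 h relative to filtered 1 h, 1 member rose and 0 fell, where 5.47% and 2.64% of all probe sets did. At an unadjusted p under 0.05 there were 5 members, and 20.4% of all probe sets. The mid-sporulation markers rose in 6 of 6 cases in this course as in DMSO. The member was COX5B, at 6.92 and 7.21 in filtered 4 h, against 6.27 and 6.41 in filtered 1 h (0.73 ± 0.17, limma adjusted p = 0.0109). Without replicate 2 of filtered 4 h it was 0.58 (limma adjusted p = 0.19), and without replicate 1 of filtered 1 h 0.66 (limma adjusted p = 0.072). LSC1 (0.41), KGD2 (0.38) and KGD1 (0.33) lay above 0 without passing the test. The difference between the courses of the sets was not tested. With values as deposited 4 members rose, 3 of them in the TCA cycle, and the split over all probe sets was 6.82% higher and 0.738% lower.

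Between the sets at filtered 1 h, 2 members were higher and 4 lower in set 2, where 10.8% and 11.7% of all probe sets were. ATP7 (-0.64), QCR8 (-0.56), ATP2 (-0.46) and SDH2 (-0.39) were lower in set 2 than in set 1, and CIT1 (0.77) and COX13 (0.39) higher. Without replicate 1 of the set 2 group limma called 0 members, and CIT1 was 0.19 without replicate 1 of the set 1 group. With values as deposited the counts were 1 higher and 8 lower, with 6.52% and 22.1% of all probe sets.

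At 1 h of benomyl the largest falls among the members were of CYC1, FUM1, ACO1, IDH1, RIP1, COX5A and LSC1, and COX5B rose. Relative to DMSO 1 h, 1 member rose and 21 fell, where 25.6% and 26.7% of all probe sets did. The members' median was -0.32, against 0.01 over all probe sets. In the TCA cycle 6 of 11 fell, in complex III 5 of 9, in complex IV 5 of 9, in the ATP synthase 3 of 10 and in complex II 1 of 4. In the same comparison 7 of 7 early meiosis markers fell (median -1.57) and 4 of 7 acetate growth markers fell (median -1.07), and their part in the members' changes was not tested.

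CYC1 stood at 8.53 and 6.92 in benomyl 1 h, against 10.60 and 10.31 in DMSO 1 h, a fall (-2.73 ± 0.31, limma adjusted p = 6.74e-07). CYC7 stood at 8.66 and 7.48, against 8.36 and 7.98 in DMSO 1 h (-0.10, not called). The benomyl arrays of both genes lay more than 1 log2 unit apart, with replicate 2 the lower, yet both CYC1 values were below both of DMSO 1 h.

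COX5A and COX5B moved in opposite directions. COX5A stood at 10.66 and 10.04 in benomyl 1 h, against 11.53 and 11.38 in DMSO 1 h (-1.10 ± 0.15, limma adjusted p = 5.53e-06). COX5B stood at 8.49 and 8.50 in benomyl 1 h, against 6.47 and 6.02 in DMSO 1 h, a 4.75-fold rise (2.25 ± 0.17, limma adjusted p = 5.08e-09). COX5B was the single member that rose, and its 2 benomyl arrays nearly coincided.

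**Figure D4:**
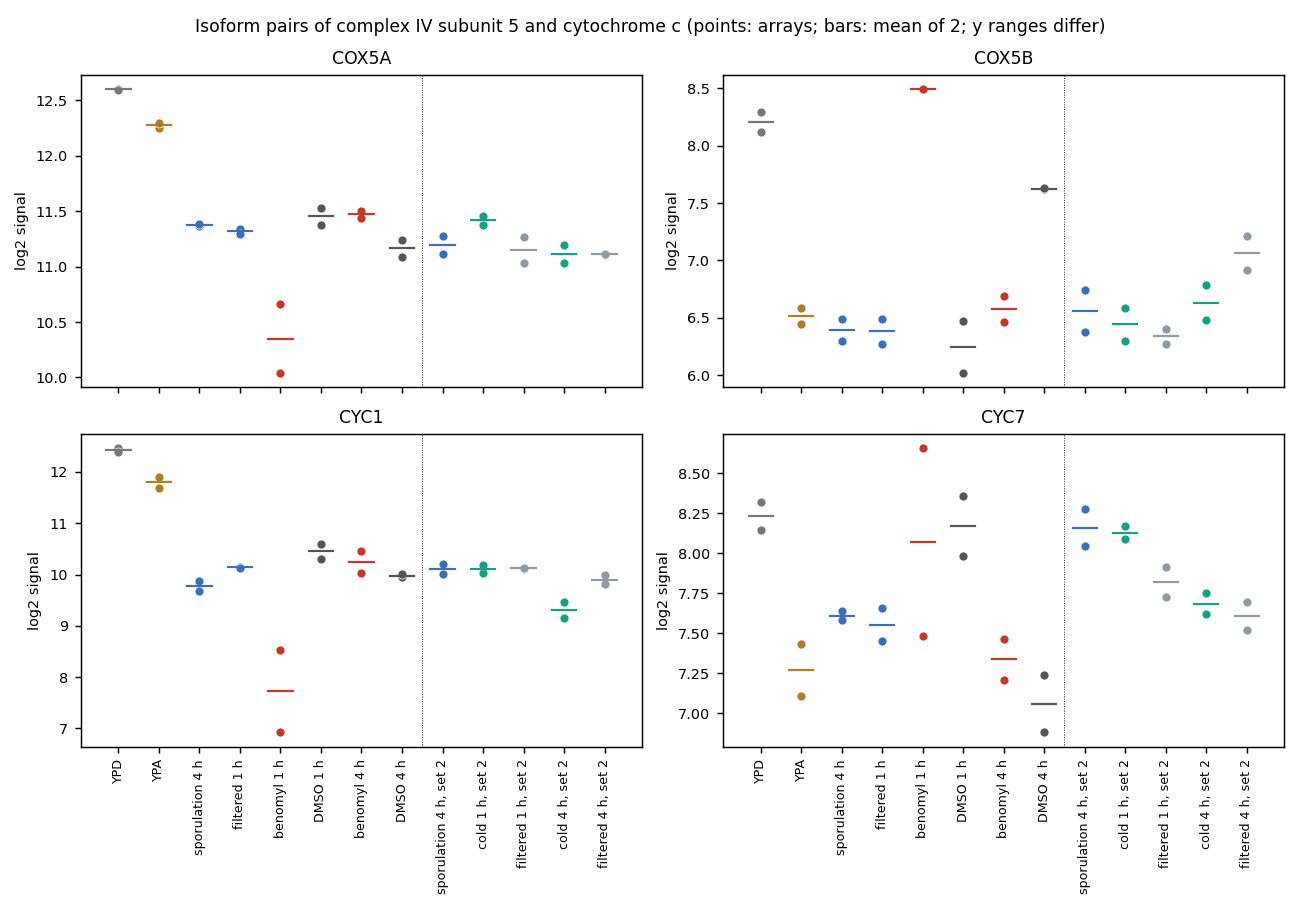
Log2 signal of COX5A, COX5B, CYC1 and CYC7 on each of 26 arrays (points; bars are means of 2), with YPD and YPA at the left and set 2 right of the dotted line. COX5B is highest in benomyl 1 h (8.49 and 8.50) and YPD (8.12 and 8.30), and CYC1 is lowest in benomyl 1 h (8.53 and 6.92).

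FUM1 stood at 10.08 and 10.43 in benomyl 1 h, against 12.23 and 12.42 in DMSO 1 h (-2.07 ± 0.16, limma adjusted p = 7.48e-09). ACO1, aconitase, stood at 11.53 and 10.54, against 12.67 and 12.68 in DMSO 1 h (-1.64 ± 0.20). IDH1 stood at 10.33 and 9.48, against 11.42 and 11.63 in DMSO 1 h (-1.62 ± 0.22). None of these 3 overlapped between benomyl and DMSO, which adds little, since they were named as the largest falls of their class. LSC1 (-1.02), LSC2 (-0.90) and IDH2 (-0.85) fell less. CIT1, KGD1, KGD2, LPD1 and MDH1, malate dehydrogenase, lay between -0.21 and 0.25 and were not called.

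In complex III, RIP1, the Rieske iron-sulfur protein, stood at 11.62 and 10.60 in benomyl 1 h, against 12.47 and 12.33 in DMSO 1 h (-1.28 ± 0.19, limma adjusted p = 2.33e-05). QCR2, a core subunit gene, stood at 10.63 and 10.16, against 11.34 and 11.46 in DMSO 1 h, and fell. COR1, of the other core subunit (-0.92), CYT1 (-0.76) and QCR6 (-0.65) fell, while QCR7, QCR8, QCR9 and QCR10, small subunits, lay between -0.26 and -0.15 and were not called. ATP7 fell most in the ATP synthase (-0.75 ± 0.14), and ATP1, ATP15, ATP5, ATP17 and ATP16 lay between -0.14 and 0.04. SDH2 fell in complex II (-0.42 ± 0.12).

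The 2 benomyl 1 h arrays differed more than those of any other group, and the difference touched this pathway unevenly. Replicate 1 was above replicate 2 for 9 of 9 complex III genes (median difference 0.47) and 8 of 11 TCA cycle genes (0.25), but for 3 of 10 ATP synthase genes (-0.04). The acetate growth markers moved with it, 6 of 7 higher in replicate 1, with ICL1 at 12.33 and 9.61 in benomyl 1 h, against 12.46 and 12.63 in DMSO 1 h, and their part in the result was not tested. Without replicate 2 of benomyl 1 h, 17 members fell and COX5B rose: RIP1 was then -0.78, IDH2 -0.54 and QCR6 -0.34, all still called, while CYT1 (-0.26), COR1 (-0.43), SDH2 (-0.33), ATP14 (-0.07) and COX8 (-0.42) were not. By scan day the TCA cycle median was -0.52 and -1.13. With array weights 1 rose and 11 fell, where 25.6% of all probe sets were called in either direction, against 52.3% in the main fit. With the 4 arrays of the contrast alone 1 rose and 6 fell, where 15.4% were called. These smaller counts therefore went with fewer calls over the whole array. Of the 22 calls 16 held under all 3 scalings.

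Other genes of the pathway also changed at benomyl 1 h relative to DMSO 1 h, and here too the 2 benomyl arrays lay apart. Replicate 1 minus replicate 2 ran from -0.97 to 3.42 among carriers and from -1.27 to 2.11 in ubiquinone synthesis. It ran from -1.24 to 1.68 among assembly factors, and its median over NADH dehydrogenases and electron donors was 1.14. The size of single changes in these lists is therefore uncertain. INH1, which encodes the inhibitor of the ATP synthase, stood at 9.08 and 8.42 in benomyl 1 h, against 10.94 and 10.89 in DMSO 1 h (-2.16). Of 13 mitochondrial carriers 8 fell and 1 rose, with the main ADP/ATP carrier gene PET9 at -1.54, and NDE1, the external NADH dehydrogenase, fell by 1.72. Of 31 assembly factors 15 rose and 3 fell, with COX15, of heme a synthesis, at 1.75. Over all probe sets 25.6% rose and 26.7% fell. Of 6 mitochondrially encoded subunits 4 rose and 0 fell, among them COB (1.49) and COX3 (1.37). COQ1, of ubiquinone synthesis, rose by 2.47 and RTG2, a sensor of mitochondrial dysfunction in retrograde signalling, by 2.79. ROX1 (-0.74) and HAP5 (-0.55) fell, and HAP1 (-0.30), HAP2 (0.01), HAP3 (0.06) and HAP4 (-0.23) were not called.

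At 4 h of benomyl COX5B was lower than in DMSO of the same age. Most genes of complexes II, III and IV and of the ATP synthase were higher after quantile normalization. In complex II, complex III and the ATP synthase this majority of calls did not hold under all 3 scalings. Of the members 26 rose and 2 fell relative to DMSO 4 h, where 16.6% and 15.9% of all probe sets did, with a median of 0.45 against 0.08 over all probe sets. The rises were 7 of 10 in the ATP synthase, 7 of 9 in complex III, 6 of 9 in complex IV, 3 of 4 in complex II and 3 of 11 in the TCA cycle. By scan day the members' median was 0.51 and 0.42.

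COX8 stood at 12.04 and 11.93 in benomyl 4 h, against 11.02 and 10.45 in DMSO 4 h (1.25 ± 0.15, limma adjusted p = 3.96e-06). ATP16 stood at 10.74 and 10.77, against 9.74 and 9.58 in DMSO 4 h (1.10 ± 0.13, limma adjusted p = 2.69e-06). QCR2 stood at 11.89 and 11.50, against 10.77 and 10.46 in DMSO 4 h (1.08 ± 0.16, limma adjusted p = 2.93e-05). In each of these 3 genes both benomyl arrays were above both DMSO arrays, but the genes were named as the largest rises of their classes. The DMSO 4 h arrays are also those that lay below DMSO 1 h: COX8 was at 11.92 and 11.92 and ATP16 at 10.52 and 10.54 in DMSO 1 h. Both comparisons use the DMSO 4 h arrays, so the fall in DMSO and the rise under benomyl are not independent results.

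SDH3 (0.62 ± 0.14) was the largest rise in complex II. CYC1 (0.26) and CYC7 (0.28) were not called, and neither was COX5A (0.31). COX5B stood at 6.69 and 6.47 in benomyl 4 h, against 7.62 and 7.63 in DMSO 4 h (-1.05 ± 0.17, limma adjusted p = 0.000122). LSC1 stood at 10.85 and 11.11 in benomyl 4 h, against 11.66 and 11.72 in DMSO 4 h, and fell by 0.71. Both genes are among the 5 that were higher at DMSO 4 h than at DMSO 1 h.

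The TCA cycle rises at benomyl 4 h were IDH1 (0.67), LPD1 (0.67), the shared dihydrolipoamide dehydrogenase, and FUM1 (0.54), and they turned on scaling. Under either of the other scalings 0 TCA cycle genes rose and 3 fell. Over all members 12 rose and 4 fell as deposited, with 10.8% and 18.8% of all probe sets. Median centring gave 13 higher and 4 lower, with 14.1% and 17.6% of all probe sets. Under all 3 scalings 14 of the 28 calls held, with no complex II gene among them. In complex III they were QCR2, QCR10 and CYT1, and in the ATP synthase ATP4, ATP5, ATP16 and ATP17. The rest were COX4, COX6, COX8, COX12, COX13, COX5B and LSC1. SDH3 was 0.43 without replicate 1 of benomyl 4 h (limma adjusted p = 0.078), and LPD1 0.45 without replicate 2 of DMSO 4 h (limma adjusted p = 0.13). The calls of IDH1 and FUM1 ended without that DMSO array or without either benomyl array. Leaving out replicate 1 of benomyl 4 h left 15 members higher and 2 lower.

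Of related genes, mitochondrially encoded COX3 (0.90) and COB (0.87) rose at benomyl 4 h relative to DMSO 4 h. Among carriers 5 of 13 rose and 1 fell, among further ATP synthase subunits 3 of 7 rose, and among assembly factors 6 of 31 rose and 4 fell, where 16.6% and 15.9% of all probe sets did. HAP5 rose (0.54), and HAP1 (0.00), HAP2 (0.28), HAP3 (-0.34), HAP4 (0.03) and ROX1 (0.25) were not called. Mid-sporulation markers were lower in benomyl than in DMSO, 5 of 6 at 4 h and 6 of 6 at 1 h, and their part in the results above was not tested.

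The effect of benomyl differed between the times for most of these genes. In the test of the difference, effect at 4 h minus effect at 1 h, 34 members were higher and 3 lower, where 24.2% and 21.5% of all probe sets were, and the median difference was 0.87 against 0.00. CYC1 had an effect of 0.26 at 4 h and -2.73 at 1 h, a difference of 2.99 ± 0.43 (limma adjusted p = 2.12e-05). FUM1 had 0.54 and -2.07, a difference of 2.61 ± 0.23, and QCR2, with 1.08 at 4 h, a difference of 2.09 ± 0.22. COX5B ran against these, with -1.05 at 4 h and 2.25 at 1 h, a difference of -3.30 ± 0.24 (limma adjusted p = 1.2e-08). KGD1 (-0.45) and KGD2 (-0.53) were the others with a lower effect at 4 h. LSC1 was lower under benomyl at both times, and its difference of 0.31 did not pass the test. Of the 37 calls 26 held under all 3 scalings.

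**Figure D5:**
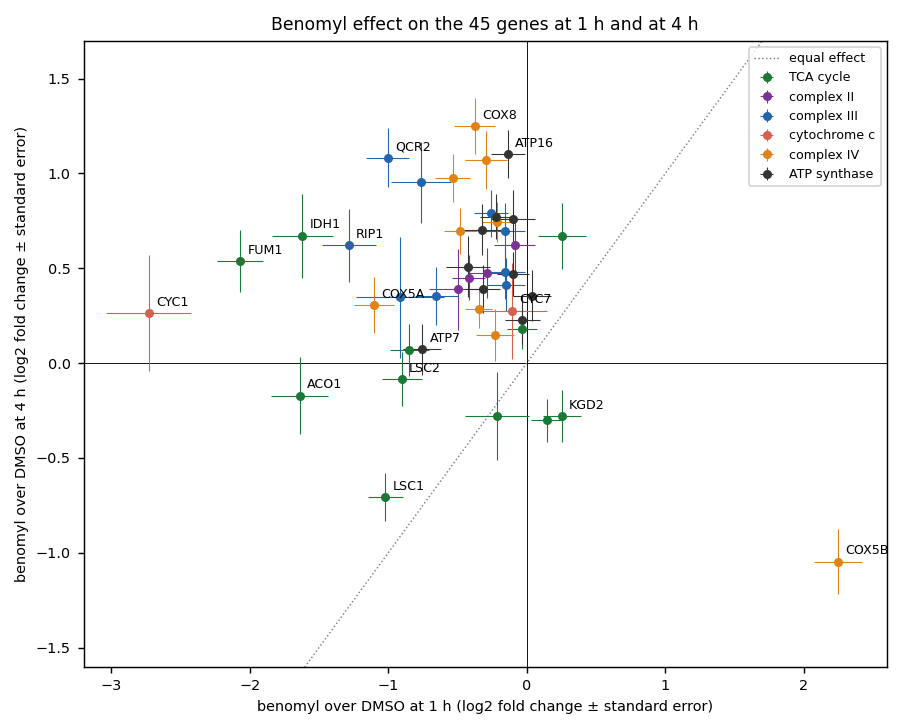
Log2 fold change of benomyl over DMSO at 4 h (vertical axis) and at 1 h (horizontal axis) for the 45 genes, coloured by class, with standard errors from limma; the dotted line marks equal effects. Most points lie left of 0 and above it, and COX5B lies alone at 2.25 at 1 h and -1.05 at 4 h.

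In cells moved into chilled medium with DMSO at 10 °C, 1 of these genes was called at 1 h and 8 at 4 h. The test of the difference between the times called 1. At cold 1 h relative to filtered 1 h of set 2, 1 member fell and 0 rose, where 8.35% and 11.7% of all probe sets did. At an unadjusted p under 0.05 there were 4 members, and 33.7% of all probe sets. COX9, a small subunit of complex IV, stood at 10.20 and 10.21 in cold 1 h, against 10.54 and 10.63 in filtered 1 h (-0.38 ± 0.10, limma adjusted p = 0.00969). Without replicate 1 of cold 1 h it was -0.37 (limma adjusted p = 0.063), and without replicate 2 of filtered 1 h -0.34 (limma adjusted p = 0.054). With values as deposited or median centring COX9 was not called and 1 TCA cycle gene rose. Of 12 regulators 3 rose, 1 fell and 8 were not called. HAP4 stood at 11.50 and 11.62 in cold 1 h, against 10.50 and 10.51 in filtered 1 h (1.05), and ROX1 at 9.15 and 9.25, against 7.84 and 8.25 (1.16). Both rose, and HAP1, HAP2, HAP3 and HAP5 were not called. Of 31 assembly factors 11 rose and 1 fell.

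At cold 4 h relative to filtered 4 h, 8 members fell and 0 rose, where 16.8% and 19.4% of all probe sets did, so the share of members lower was near that of the whole array. At an unadjusted p under 0.05 there were 14 members, and 44.7% of all probe sets. The median was -0.23 against 0.03. COX7, of complex IV, stood at 10.49 and 10.61 in cold 4 h, against 11.42 and 11.32 in filtered 4 h (-0.82 ± 0.14, limma adjusted p = 0.000113). KGD2 stood at 9.68 and 9.62, against 10.34 and 10.39 in filtered 4 h (-0.71 ± 0.14, limma adjusted p = 0.000489). QCR2 stood at 10.70 and 10.77, against 11.48 and 11.33 in filtered 4 h (-0.67 ± 0.16). The arrays of cold and filtered cells did not overlap in these genes, which were named as the largest falls of their classes.

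SDH4, a membrane anchor of complex II (-0.55), ATP14 (-0.55), LPD1 (-0.48), KGD1 (-0.40) and COX9 (-0.34) made up the rest of the fall at cold 4 h. KGD1, KGD2 and LPD1 encode the 3 components of 2-oxoglutarate dehydrogenase, and all 3 fell. The second probe set of ATP14 did not share its fall (0.15), and LPD1 was -0.26 without replicate 2 of cold 4 h (limma adjusted p = 0.38). The calls of KGD1, LPD1 and COX9 each ended without replicate 2 of cold 4 h or of filtered 4 h, those of KGD1, LPD1 and ATP14 without replicate 1 of filtered 4 h, and that of ATP14 without replicate 1 of cold 4 h. CYC1 (-0.59), CYC7 (0.08), COX5A (0.00) and COX5B (-0.43) were not called, nor were the 6 named regulators. The count was 1 higher and 15 lower with array weights, 1 and 21 with the arrays of the contrast alone and 1 and 14 without the benomyl 1 h arrays. The shares over all probe sets under these 3 settings are not given here, so these counts cannot be weighed against the whole array. With values as deposited the split over all probe sets was 14.6% higher and 20.9% lower.

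The mid-sporulation markers were far lower in the cold at 4 h (6 of 6 fell, median -3.87), the early meiosis markers were lower too (7 of 7 fell, between -1.22 and -0.59), and their part in the members' changes was not tested. COX7 was the 1 member whose effect of cold differed between the times (-0.82 at 4 h and -0.14 at 1 h, a difference of -0.68 ± 0.19, limma adjusted p = 0.0367), where 7.83% of all probe sets were called, 2.83% higher and 5% lower (1.40% and 6.01% as deposited). This call was lost with median centring, with array weights and on leaving out any 1 of the 8 arrays except replicate 2 of cold 1 h. ROX1 differed too (-0.42 at 4 h and 1.16 at 1 h, a difference of -1.58). DMSO was stated for the cold cultures and not for their controls, so cold and solvent cannot be told apart in set 2.

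Outside the members, the 5 genes whose profile over the 13 group means was most like the members' median profile, of 5419 ranked, were CPP2 (r = 0.95), ATP20 (0.95), YHB1 (0.95), SMF1 (0.95) and ATP18 (0.95). ATP20 and ATP18 encode further subunits of the ATP synthase, YHB1 a flavohemoglobin and SMF1 a manganese transporter. The probe set of YHB1 can match near-identical copies, so its value is uncertain. Without YPA and YPD, over 11 groups, r was 0.90 for YHB1, 0.80 for SMF1, 0.75 for CPP2, 0.75 for ATP20 and 0.74 for ATP18.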

How the data were processed

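The authors deposited log2 signals for 9335 probe sets, made by a method not given in the sources used here, with the log base inferred from values between 2.09 and 15.1. Instrument files of another kind for 16 arrays (unit "other", per the file headers) gave scan days only: replicate 1 of 7 groups of set 1 on day 1, replicate 2 on day 2, both YPD arrays on day 3. Signals were quantile normalized, 60 control probe sets left out, and 7877 kept whose highest group mean exceeded log2 5.44, the 25th percentile. Limma 3.58.1 (R 4.3.3) fitted 1 mean per group to all 26 arrays with an intensity trend, leaving 13 residual degrees of freedom, and p-values were Benjamini-Hochberg adjusted over all probe sets kept. The script was tested on simulated data. Of the probe sets 6504 had 1 gene in the supplied annotation, 328 several and 2443 none listed. The members and lists were chosen with earlier results of these data known. The rule named, in each class and comparison, the called member with the largest rise and fall, the isoform pairs, up to 3 genes of each other list with the smallest adjusted p, the HAP genes and ROX1; any member could be named, and other genes were chosen after their values were seen. No values were taken under the symbols ATP21, YMR31 and COQ7, which may be other names of listed genes, and ATP8 and FUS1 did not pass the filter. A planned promoter motif search was not run. The number of arrays limits precision.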

Additional observations from a re-analysis of the deposited data

Results flagged for a closer look

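The test of a difference between times singled out 37 members for benomyl and 1 for cold, each as the effect at 4 h minus the effect at 1 h. For benomyl the largest differences in each class were 2.99 for CYC1, 2.61 for FUM1, 2.09 for QCR2, 1.63 for COX8, 1.24 for ATP16 and 0.88 for SDH1, with -3.30 for COX5B and -0.53 for KGD2 in the other direction. For SDH1 neither effect by itself passed the test (0.39 at 4 h and -0.49 at 1 h). For cold the member was COX7, at -0.68. No cause was tested.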

How the results depend on the processing

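Counts of members called, 1 choice changed at a time, moved as follows. A percentage in brackets is the share of all probe sets called in either direction under the same choice. Values as deposited gave 17 for DMSO 4 h over 1 h (36.9%), 16 for benomyl 4 h (29.7%) and 4 for filtered 4 h over 1 h (7.56%). Median centring gave 17 for benomyl 4 h (31.7%), 2 for filtered 4 h over 1 h (6.9%) and 0 for the cold difference. In the main fit the share was 43.6% for DMSO 4 h over 1 h, 32.6% for benomyl 4 h and 8.11% for filtered 4 h over 1 h. The balance turned for YPA over YPD with median centring (5 called, more of them higher) and for cold 1 h with both (1 called, higher). In 4 h sporulation over YPA, CIT1 was -0.72 and -0.52, IDH2 -0.51 and -0.31 and SDH2 -0.64 and -0.43 with median centring and as deposited, and LSC2 -0.49 with median centring. Array weights gave 2 (filtered 1 h over 4 h sporulation, set 1, 10.2%), 6 (DMSO 1 h, 3.66%), 0 (filtered 4 h over 1 h, 4.46%) and 1 (set 2 over set 1, 9.03%). They also gave 12 (benomyl 1 h, 25.6%), 0 (cold 1 h, 11.2%), 16 (cold 4 h) and 0 (cold difference). In the main fit the share was 3.08% for filtered 1 h over 4 h sporulation in set 1, 0.571% for DMSO 1 h and 22.5% between sets. It was 52.3% for benomyl 1 h and 20.1% for cold 1 h. For cold 4 h and the cold difference the shares under changed choices are not given here. Only the arrays of the contrast gave 0 (DMSO 1 h, 0.635%), 0 (filtered 4 h over 1 h, 4.11%), 0 (set 2 over set 1, 3.54%) and 7 (benomyl 1 h, 15.4%). They also gave 0 (cold 1 h, 9.29%), 22 (cold 4 h) and 4 (cold difference). Leaving out both benomyl 1 h arrays was an alternative chosen after seeing the data. The counts were then 2 (DMSO 1 h, 1.79%), 2 (filtered 1 h over 4 h sporulation, set 2, 6.35%) and 3 (filtered 4 h over 1 h, 13.9%). For the cold they were 4 (cold 1 h, 30.1%), 15 (cold 4 h) and 3 (cold difference). The stricter filter gave 2 for filtered 4 h over 1 h (10.8%). With filtered 1 h as the control of benomyl 1 h CIT1 was 0.87, and with the lower probe set ATP14 was -0.040 at benomyl 4 h and 0.15 at cold 4 h.

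Leaving out 1 array in turn gave 2 to 5 for YPA over YPD, 25 to 28 for 4 h sporulation over YPA, 0 to 1 and 0 to 0 for filtered 1 h in sets 1 and 2, 0 to 1 for DMSO 1 h, 23 to 27 for DMSO 4 h over 1 h, 0 to 1 for filtered 4 h over 1 h, 0 to 8 between sets, 18 to 24 for benomyl 1 h, 17 to 27 for benomyl 4 h, 0 to 2 for cold 1 h, 5 to 8 for cold 4 h, 30 to 37 for the benomyl difference and 0 to 1 for the cold difference. Of 169 called member values the replicate block ended 3 (CIT1 for DMSO 1 h, leaving 0 members there, SDH2 between sets and COX8 at benomyl 1 h) and added 2. Residual correlations of arrays with the same number ran from -0.15 to 0.31 over 28 pairs of groups in set 1 and from -0.29 to 0.39 over 10 pairs in set 2, where those among cold 1 h, filtered 1 h and 4 h sporulation were 0.28 to 0.39. By the rule that every pair exceed 0.1 the numbers were not taken as pairs, although in 7 groups of set 1 they go with the scan day. The scan day block ended 0 of 152. No filter, no variance trend and the stricter filter ended 0 of 169. Causes were not tested.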

Other observations

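Some genes of the same pathway outside the 45 were called in the cold. At cold 4 h relative to filtered 4 h, DIC1, the mitochondrial dicarboxylate carrier, rose by 2.02, IDP3, a peroxisomal NADP-dependent isocitrate dehydrogenase, by 2.53, STF2, associated with the ATP synthase inhibitor, by 1.56 and CYB2, the lactate dehydrogenase that feeds cytochrome c, by 1.31. LAT1, of pyruvate dehydrogenase, fell by 1.16, SDH6, an assembly factor of complex II, by 1.11 and INH1 by 0.66. These are single called genes picked from their lists. Of 13 carriers 2 rose and 3 fell, of 16 isozymes and feeders of the TCA cycle 5 and 4, and of 31 assembly factors 5 and 5. Of 7 further ATP synthase subunits and inhibitors 1 rose and 1 fell, and of 6 NADH dehydrogenases and electron donors 1 and 0. Over all probe sets 19.4% rose and 16.8% fell. The 6 measured mitochondrially encoded subunits gave 0 calls in either direction, which says little for so few genes.

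In the difference between the benomyl effects at 4 h and 1 h, INH1 (2.56), PET9 (1.74) and NDE1 (1.68) were higher, as most members were. RTG2 (-2.21), COQ1 (-2.06) and the complex IV assembly factor SCO1 (-1.94) were lower, as COX5B was.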
